A study of Mus musculus with 2 samples.

Results

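Kinesins are motor proteins that use the energy of ATP to move along microtubules or to take microtubules apart. In mouse thymus, the genes of this family were taken as every gene whose symbol starts with Kif followed by a digit. The deposited files held 48 transcripts of 37 such genes, out of 23296 genes with a symbol. By their known function, 11 of the 37 were mitotic kinesins, 15 were transport kinesins and 11 were others (cilium and Hedgehog signalling, microtubule ends, a pseudogene, or functions less well known). No transcript in the files was matched to Kif14, a mitotic kinesin, so no value is given for it.

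The libraries compared the thymus of miR-146a Tg mice with that of WT mice, both of the Balb/c strain and 5 to 6 weeks old. The Tg mice overexpressed miR-146a systemically. There was 1 Tg library and 1 WT library, each from the thymuses of 1 male and 1 female mixed as a pool, so the spread between animals was not measured and no test between genotypes was possible. Values are RPKM as deposited, that is, reads divided by the length of the transcript and by the mapped reads of the library. Whole fragments (read pairs) could be recovered from them, out of 15396696 in the Tg library and 14522669 in the WT library. Ratios are Tg over WT. Each is followed by its exact binomial 95% interval, which reflects the counting of fragments and not the variation between animals. No fragment of Mir146, the precursor on chromosome 11 of GRCm38, was found in either library of polyadenylated RNA, so these data do not show the transgene. The sources used here do not state the promoter that drives it.

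Dividing cells need a set of kinesins that stay idle or scarce in resting cells. These motors push the spindle poles apart, align chromosomes on the spindle, shorten microtubule ends and build the midzone at which the daughter cells separate. Transport kinesins work at every stage of the cell cycle and carry vesicles, mitochondria, mRNA and other cargo toward the cell surface. In the thymus, the large blast cells that precede the small CD4+CD8+ double-positive thymocyte divide, whereas most small double-positive cells and single-positive cells do not.

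The 2 functional classes differed in these libraries. Each of the 10 mitotic kinesins that reached a mean of 1 RPKM exceeded its WT value by over 1.5-fold in the Tg library, and none of the 9 transport kinesins that reached it was over 1.5-fold higher or lower. Among the 11095 genes that passed the same minimum (measured genes), 7.74% were over 1.5-fold higher and 11.0% over 1.5-fold lower. The median log2(Tg/WT) was 1.53 for the mitotic kinesins, 0.05 for the transport kinesins and 0.03 for all measured genes. The classes did not overlap: the lowest ratio of a measured mitotic kinesin was 1.63 (Kif18a) and the highest of a measured transport kinesin was 1.35 (Kif3a). That separation depends on the placing of Kif2a, which acts in mitosis and outside it and was counted among the others: with Kif2a and Kif24 added to the mitotic class, 11 of 12 were over 1.5-fold higher and the classes overlapped, since the ratio of Kif2a was 1.07. Members of a class were read from the same 2 libraries and are not replicates of a genotype. In whole thymus, more cells of a kind and more RNA per cell cannot be told apart.

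Markers of thymocyte stages also differed between the libraries, and their part in the kinesin values was not tested. In the Tg library, all 7 markers of mature single-positive thymocytes were lower by over 1.5-fold, with a sum of 358 RPKM against 783 RPKM in the WT library. Of 7 double-positive markers 6 lay within 1.5-fold and 1 was higher (sums of 2735 and 2371 RPKM in the Tg and WT libraries). Of 6 measured double-negative markers 1 was higher, the pre-T cell receptor gene Ptcra (17.3 and 10.7 RPKM in the Tg and WT libraries). A further 2 were lower, Dtx1 (3.16 and 4.91 RPKM) and Cd44 (1.16 and 2.12 RPKM), and 3 lay within 1.5-fold. The list summed to 54.5 RPKM in the Tg library and 42.5 RPKM in the WT library. Erythroid, B cell and thymic epithelial markers summed to 46.5, 21.4 and 8.08 RPKM in the Tg library and to 90.2, 29.2 and 8.22 RPKM in the WT library. Of their measured markers, 2 of 2 erythroid, 1 of 4 B cell (Ms4a1) and 1 of 3 thymic epithelial markers (Ccl25) had Tg values lower by over 1.5-fold, and none had a Tg value higher by as much. Over all measured genes 7.74% were over 1.5-fold higher and 11.0% over 1.5-fold lower.

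**Figure D1:**
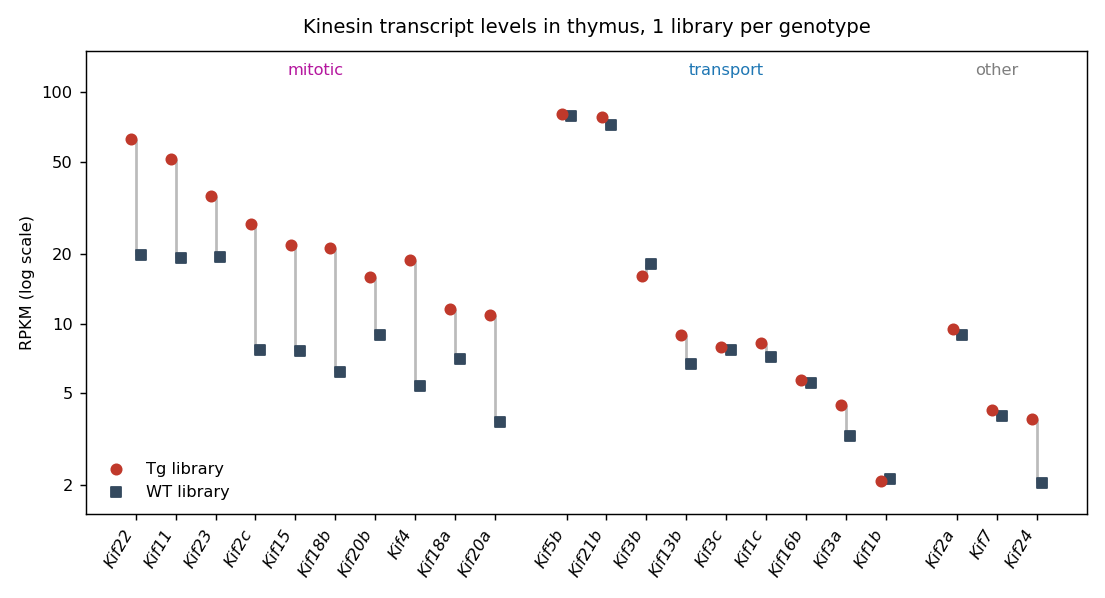
RPKM (log axis) of the 22 kinesin genes with a mean of at least 1 RPKM, in the Tg library (circles) and the WT library (squares), 1 library each, with a grey line joining the values of a gene. The 10 mitotic kinesins stand higher in the Tg library, while the transport kinesins Kif5b (80.0 and 79.0 RPKM in the Tg and WT libraries) and Kif21b (78.4 and 72.0 RPKM) lie almost level.

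Among the motors that act on chromosomes and spindle poles, Kif22 and Kif11 were the most abundant. Kif22 (chromosome 7, 127027729 to 127042467, GRCm38) is a chromokinesin that binds DNA and moves chromosome arms outward on the spindle. It had 62.7 RPKM in the Tg library and 19.9 RPKM in the WT library, a ratio of 3.16 (2.88 to 3.47) on 1993 and 595 fragments. Kif11 lies on chromosome 19 from 37376382 to 37421863 and encodes the tetrameric motor Eg5, which slides spindle microtubules apart. Its values were 51.4 RPKM in the Tg library and 19.2 RPKM in the WT library, a ratio of 2.67 (2.51 to 2.84). Kif15, a motor that can share the task of Eg5, had 21.9 and 7.58 RPKM in the Tg and WT libraries, a ratio of 2.88 (2.61 to 3.19). Kif4, a second chromokinesin, lies on the X chromosome (100626065 to 100727271). Its level was 18.9 RPKM in the Tg library and 5.36 RPKM in the WT library, the highest ratio among the measured kinesins at 3.52 (3.13 to 3.96). Each of these motors ranked among the 145 highest ratios of the 11095 measured genes, with Kif4 at rank 48.

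The kinesins that regulate microtubule ends differed among themselves. Kif2c, a depolymerase also called MCAK that corrects faulty kinetochore attachments, had 26.8 RPKM in the Tg library and 7.66 RPKM in the WT library, a ratio of 3.50 (3.09 to 3.98). Kif18b, which works with Kif2c on the microtubules that reach the cell cortex, had 21.2 and 6.15 RPKM in the Tg and WT libraries, a ratio of 3.44 (3.03 to 3.93). Kif18a, which dampens chromosome movements at the metaphase plate, stood closer to the WT level, at 11.5 RPKM in the Tg library and 7.05 RPKM in the WT library. Its ratio of 1.63 had an interval (1.43 to 1.87) that reached below 1.5. Kif2b, a further depolymerase, had no fragments in either library, and Kif2a, whose depolymerase activity is used outside mitosis as well, had 9.49 and 8.89 RPKM in the Tg and WT libraries, a ratio of 1.07 (0.978 to 1.17).

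The kinesins of the central spindle and of cytokinesis were also higher in the Tg library. Kif23, the motor of the centralspindlin complex, lies on chromosome 9 from 61917277 to 61946810. It had 35.5 RPKM in the Tg library and 19.4 RPKM in the WT library, a ratio of 1.82 (1.69 to 1.97). Kif20a, which brings Aurora B kinase to the midzone, had 10.9 RPKM in the Tg library and 3.77 RPKM in the WT library, a ratio of 2.89 (2.46 to 3.42). Its 3 listed transcripts overlap, and their ratios ran from 2.60 to 2.89. Kif20b, a related motor that acts in late cytokinesis, had 15.9 and 8.89 RPKM in the Tg and WT libraries, a ratio of 1.79 (1.63 to 1.96). Kif20a and Kif20b therefore differed from each other in the size of their ratios, and their intervals did not overlap.

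By size of ratio, 7 mitotic kinesins (Kif4, Kif2c, Kif18b, Kif22, Kif20a, Kif15 and Kif11) were over 2-fold higher, and 3 (Kif23, Kif20b and Kif18a) had ratios between 1.63 and 1.82. Of all measured genes, 2.79% were over 2-fold higher and 3.84% over 2-fold lower, and no measured kinesin was over 2-fold lower. The ratios also spread within the 7, since the interval of Kif4 (3.13 to 3.96) lay above that of Kif11 (2.51 to 2.84). In the WT library Kif23, Kif20b and Kif18a had 19.4, 8.89 and 7.05 RPKM, within the range of the other 7 (3.77 to 19.9 RPKM).

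**Figure D2:**
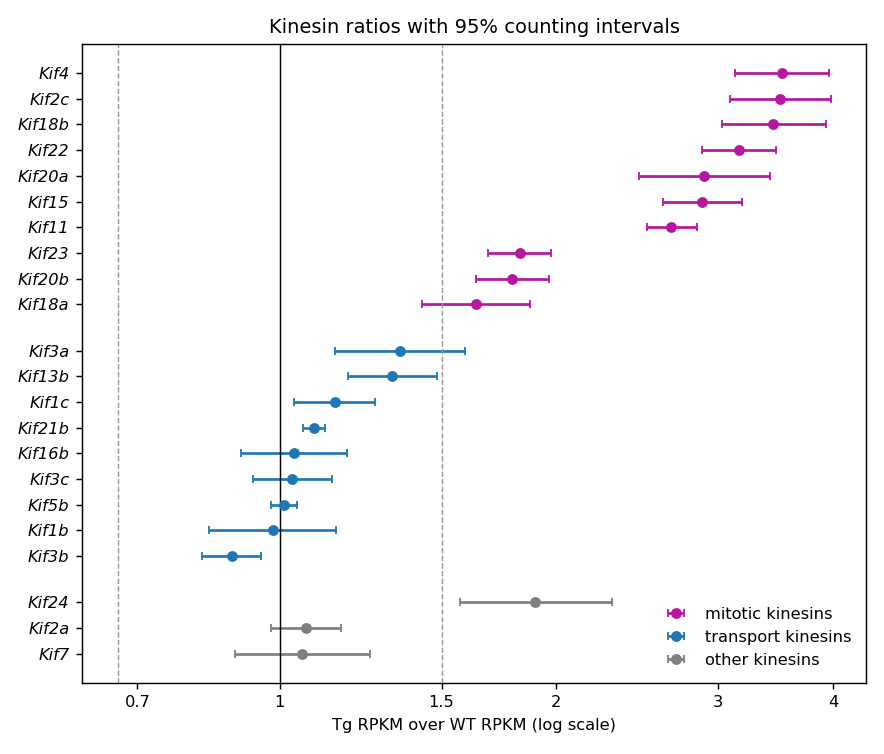
Ratio of Tg RPKM to WT RPKM (log axis) for the 22 measured kinesins, ordered by ratio within each class, with bars for the exact 95% counting interval. The solid line marks equal values and the dashed lines 1.5-fold; the 10 mitotic kinesins run from 1.63 to 3.52, the 9 transport kinesins from 0.886 to 1.35, and Kif24 stands at 1.90.

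The transport kinesins with the highest RPKM were a kinesin-1 motor, Kif5b, and a kinesin-4 motor, Kif21b. Kif5b, the widely expressed heavy chain of conventional kinesin, lies on chromosome 18 from 6201005 to 6241524. It was the most abundant kinesin of both libraries, at 80.0 RPKM in the Tg library and 79.0 RPKM in the WT library, a ratio of 1.01 (0.979 to 1.05) on 7424 and 6922 fragments. Its paralogs Kif5a and Kif5c, known from neurons, stayed at or below 0.352 RPKM. Kif21b, a kinesin-4 motor known from neurons and lymphocytes that also limits microtubule growth, lies on chromosome 1 from 136131390 to 136178001. It had 78.4 RPKM in the Tg library and 72.0 RPKM in the WT library, a ratio of 1.09 (1.06 to 1.12) on 11002 and 9530 fragments. Its paralog Kif21a had 2 fragments in the Tg library and none in the WT library.

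The kinesin-2 motors carry cargo in the cytoplasm and build cilia. Kif3b, which pairs with Kif3a, had 16.0 RPKM in the Tg library and 18.0 RPKM in the WT library, a ratio of 0.886 (0.823 to 0.954). Kif3a had 4.43 RPKM in the Tg library and 3.28 RPKM in the WT library, a ratio of 1.35 (1.15 to 1.59). The partners thus stood on opposite sides of 1, and Kif3b exceeded Kif3a in both libraries on the RPKM scale. Kif3c, a subunit that can replace Kif3b, had 7.91 and 7.66 RPKM in the Tg and WT libraries, a ratio of 1.03 (0.935 to 1.14).

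The kinesin-3 motors carry vesicles and endosomes. Kif13b had 8.88 RPKM in the Tg library and 6.70 RPKM in the WT library, a ratio of 1.33 (1.19 to 1.48), and Kif1c had 8.26 and 7.20 RPKM in the Tg and WT libraries, a ratio of 1.15 (1.04 to 1.27). Kif16b, an endosome motor, had 5.71 and 5.51 RPKM in the Tg and WT libraries, with a ratio of 1.04 (0.908 to 1.18). Kif1b was represented by its longer transcript, NM_207682, at 2.09 RPKM in the Tg library and 2.13 RPKM in the WT library, a ratio of 0.983 (0.839 to 1.15). The shorter transcript, NM_008441, had 1.54 and 1.00 RPKM in the Tg and WT libraries, a ratio of 1.54 (1.20 to 1.99). The listed transcripts of a gene share exons, and the sources used here do not say how reads of shared exons were divided between them.

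Of the other kinesins, 3 were measured. Kif24, which restrains the growth of primary cilia from the mother centriole, had 3.88 RPKM in the Tg library and 2.04 RPKM in the WT library, a ratio of 1.90 (1.57 to 2.30) on 334 and 166 fragments. It was the one measured kinesin outside the mitotic class that was over 1.5-fold higher. Kif7, a regulator of Hedgehog signalling at the tip of the cilium, had 4.22 and 3.99 RPKM in the Tg and WT libraries, a ratio of 1.06 (0.893 to 1.26). Kif7 overlaps Ticrr, a gene of replication initiation with a ratio of 3.09. Kif18a, Kif20a and Kif2a also overlap protein-coding genes in the annotation, and the strand setting of the counting is not given in the sources used here, so reads of overlapping genes cannot be told apart.

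A further 15 kinesins did not reach a mean of 1 RPKM, and none of them exceeded 0.448 RPKM in the Tg library or 0.352 RPKM in the WT library. They were 6 transport kinesins, 8 others and Kif2b. Of these, 8 had at most 3 fragments in both libraries, which allows no statement on a difference. Kif5c had 11 fragments in the Tg library and 35 in the WT library, a ratio of 0.296 (0.136 to 0.597). Kif17, a motor of dendrites and cilia, had 27 fragments in the Tg library and 8 in the WT library, a ratio of 3.18 (1.41 to 8.11). Both were named after their values were seen. Of 8 neuron and nerve markers 1 was measured, Tubb3, at 4.18 and 2.44 RPKM in the Tg and WT libraries, and the list summed to 4.82 RPKM in the Tg library and 3.53 RPKM in the WT library. Map2 of the same list, a protein of neuronal microtubules, was lower, with 5 fragments in the Tg library and 41 in the WT library. Its ratio was 0.115 (0.035 to 0.291). Stmn2 of that list went the other way, with 5 fragments in the Tg library and 0 in the WT library. Map2 and Stmn2 were also picked after their values were seen. Of 6 ciliated cell markers 1 was measured, Ccdc39, and Dnah5 had no fragments in either library. The part of such cells in these values was not tested.

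Summed over the family, kinesin transcripts stood at 507 RPKM in the Tg library and 322.6 RPKM in the WT library. The mitotic kinesins summed to 277 RPKM in the Tg library and 105 RPKM in the WT library, and the transport kinesins to 213 and 202 RPKM. The mitotic class thereby held 54.6% of the kinesin RPKM in the Tg library and 32.6% in the WT library. Counted in fragments, which favours long transcripts, its share was 38.0% (exact interval 37.5 to 38.5%) of 40736 in the Tg library and 20.2% (19.7 to 20.7%) of 28105 in the WT library. The median transcript was 3501 nt long in the measured mitotic kinesins, 6030 nt in the measured transport kinesins and 2789 nt in all measured genes.

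**Figure D3:**
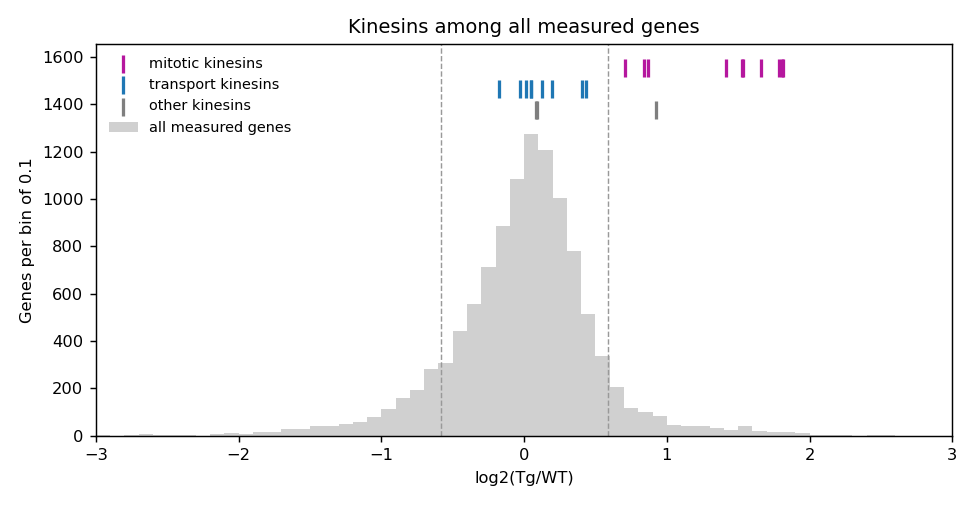
Number of measured genes per bin of 0.1 in log2(Tg/WT) (grey bars, 11095 genes), with ticks above for each measured kinesin by class. Dashed lines mark 1.5-fold; the transport kinesins lie over the centre of the distribution (median 0.05), and the mitotic kinesins lie in its right tail (median 1.53).

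Proteins that work with each class were read from separate lists. Of 12 partners of mitotic kinesins, 11 exceeded 1.5-fold in favour of the Tg library, with a median log2(Tg/WT) of 1.52. Among all measured genes 7.74% were over 1.5-fold higher. Aurkb, the Aurora B kinase, had 38.6 RPKM in the Tg library and 8.73 RPKM in the WT library, a ratio of 4.42 (3.85 to 5.09). The other subunits of its complex, Incenp (59.9 and 21.3 RPKM in the Tg and WT libraries), Birc5 (59.0 and 16.1 RPKM) and Cdca8 (52.8 and 18.3 RPKM), were higher in the Tg library as well. Racgap1, which forms centralspindlin together with Kif23, had 16.4 RPKM in the Tg library and 5.90 RPKM in the WT library. Its ratio of 2.78 (2.40 to 3.22) lay above that of Kif23 (1.82), and their intervals did not overlap. Prc1, the microtubule bundler that guides Kif4 and Kif20a, had a ratio of 3.01, Tpx2, which binds Kif11 and Kif15, one of 3.38, and Cit, which binds Kif14, one of 2.84. Anln, Ect2 and Hmmr had ratios of 3.80, 2.82 and 2.23. Numa1, which gathers microtubules at spindle poles and is also a nuclear protein of resting cells, stood at 58.8 RPKM in the Tg library and 49.7 RPKM in the WT library.

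Adaptors and light chains of transport kinesins and the dynein motor were read in the same way. Of 12 adaptors and light chains 11 were measured, all within 1.5-fold, with a median log2(Tg/WT) of 0.09. Rhot2, a mitochondrial anchor for kinesin-1, had 46.9 RPKM in the Tg library and 39.2 RPKM in the WT library. Kidins220, a membrane scaffold carried by kinesin-1, had 31.4 and 29.5 RPKM in the Tg and WT libraries. The lowest was the kinesin light chain Klc3, at 23.7 RPKM in the Tg library and 35.1 RPKM in the WT library, a ratio of 0.674 (0.608 to 0.746) just inside the limit, and it passed the limit with median centring or upper quartile scaling of the libraries. Cytoplasmic dynein and its cofactor dynactin, which move cargo in the opposite direction, had 18 of 21 measured genes within 1.5-fold and a median of 0.18. Of all 11095 measured genes 9017 lay within 1.5-fold, so the dynein and dynactin count is near the background. The exceptions were Nde1, which acts with dynein in mitosis and neurogenesis, at 38.0 and 20.5 RPKM in the Tg and WT libraries, Dynll2 at 12.5 and 8.12 RPKM, and Dynlt3 at 13.3 and 26.0 RPKM. The most abundant dynein genes were Dynlrb1 (183 and 148 RPKM in the Tg and WT libraries) and Dynll1 (127 and 103 RPKM).

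Of 5 kinesins whose symbols do not follow the Kif pattern, 4 were measured and 3 of these were over 1.5-fold higher. The share over all measured genes was 7.74%. Cenpe, the kinetochore motor of the kinesin-7 family, had 25.4 RPKM in the Tg library and 8.37 RPKM in the WT library, a ratio of 3.04 (2.82 to 3.27). Kifc1, a minus-end motor that focuses spindle poles, had 20.4 and 7.89 RPKM in the Tg and WT libraries, a ratio of 2.59 (2.24 to 2.99). Kifc5b is a close paralog of Kifc1 with a ratio of 2.58, so reads of the pair are uncertain. Kifc2, a motor known from neurons, had 6.55 and 6.73 RPKM in the Tg and WT libraries, a ratio of 0.974 (0.830 to 1.14), and Kifc3 was below a mean of 1 RPKM.

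**Figure D4:**
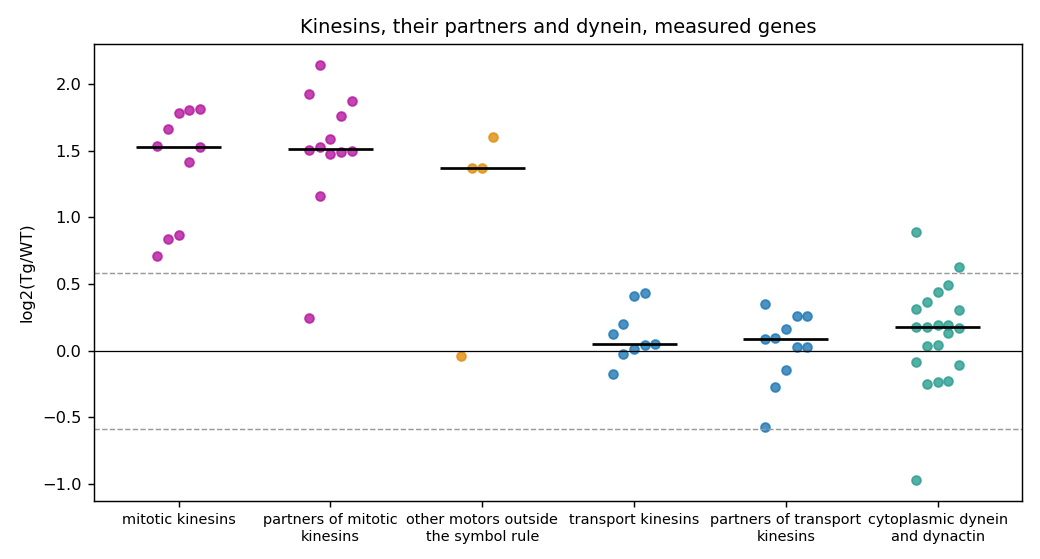
log2(Tg/WT) of each measured gene (points) in 6 lists, with the list median as a black bar, the solid line at equal values and dashed lines at 1.5-fold. The medians of the mitotic kinesins (1.53) and of their partners (1.52) stand apart from those of the transport kinesins (0.05), their partners (0.09) and dynein with dynactin (0.18).

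Promoters of the kinesins were read because genes of the G2 and M phases often carry a CHR element, the site through which the DREAM and MMB complexes silence or activate them, and CCAAT boxes bound by the factor NF-Y. RefSeq sequences of GRCm38 from 250 bases before to 50 bases after the annotated start held 18 of the 22 measured kinesins. For each gene the first listed promoter was used. The CHR letters TTTGAA or TTCGAA, on either strand, occurred in 8 of 9 mitotic kinesin promoters and in 0 of 6 transport kinesin promoters. They occurred in 14.5% of the promoters of all measured genes and in 19.4% of all 27025 promoters. Over the 18 kinesins, the 9 with the letters were the 8 mitotic genes and Kif24, with ratios from 1.79 to 3.52, and the 9 without them had ratios from 0.886 to 1.63, the highest being that of Kif18a. CCAAT, on either strand, occurred in 5 of 9 mitotic and 3 of 6 transport kinesin promoters, and in 40.0% of those of all measured genes. The stretches that follow show the CHR letters in capitals for Kif11 (chr19:37376353-37376378, plus strand), Kif2c (chr4:117178860-117178885, minus strand) and Kif22 (chr7:127042620-127042645, minus strand). They were chosen because they lie upstream of the start used in the promoter sequences and overlap no annotated exon in GENCODE M21. For Kif2c that start is an inner one, and the stretch lies within the annotated span of the gene (chromosome 4, 117159633 to 117182624). The promoter window of Kif3a (chromosome 11, 53567119 to 53567418) likewise lies within the span of its gene (53565701 to 53604248). The starts used for some others, among them Kif1c, Kif16b and Kif22, also lie within the annotated spans of their genes.
Kif11: gtctccatttTTCAAAattgaggcgc
Kif2c: aggctgctctTTCAAAcctgagtaat
Kif22: aacctggcaaTTCAAAagcctgaaag

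Counted from the start, the capitals begin 19 bases upstream in Kif11, 103 in Kif2c and 215 in Kif22. Kif22 held the letters a second time 17 bases upstream of the start used, in a stretch that overlaps an annotated exon. In Kif11 a CCAAT box in reverse (ATTGG) lies 45 bases upstream, and in Kif18b a CCAAT box lies 53 bases upstream, as shown in capitals in the next stretches (chr19:37376327-37376351, plus strand, and chr11:102925163-102925187, minus strand). The promoter of the transport kinesin Kif3b (chr2:153291337-153291361, plus strand) is set beside them because it holds a CCAAT box without the CHR letters.
Kif11: ccgctctgctATTGGtccggtcagt
Kif18b: taggaaacagCCAATcagcgagccg
Kif3b: cttcggaggcCCAATaaagttattg

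A match of letters is not a bound site, and binding was not measured. Kif20a, Kif5b, Kif13b and Kif21b had no promoter entry and were not searched.

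**Figure D5:**
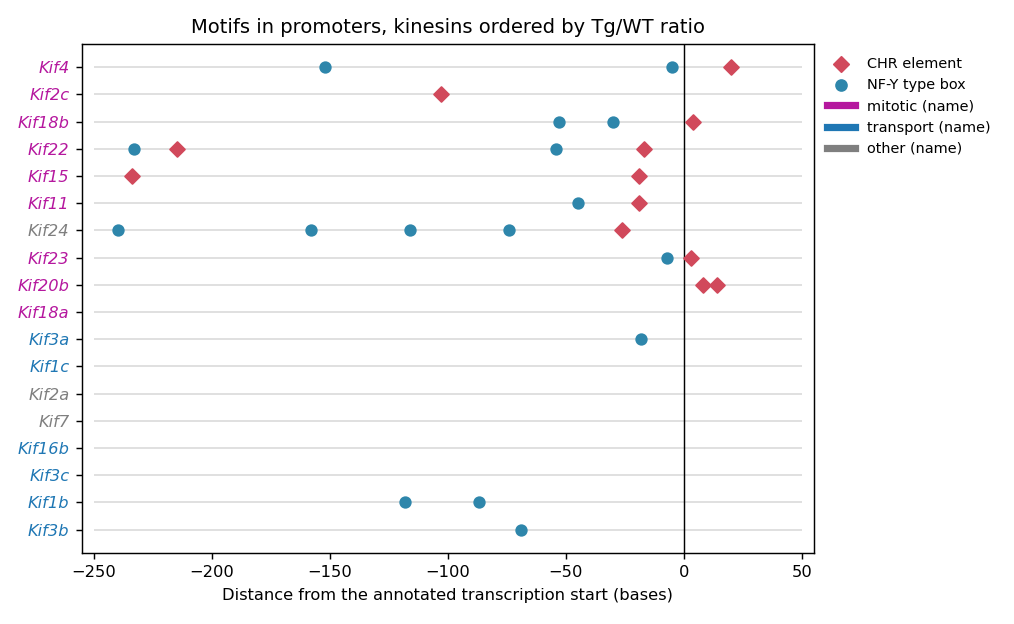
Positions of CHR elements (diamonds) and NF-Y type boxes (circles) in bases from the annotated transcription start for the 18 measured kinesins with a promoter entry, ordered from the highest Tg/WT ratio (Kif4, 3.52) to the lowest (Kif3b, 0.886). Names are coloured by class; diamonds appear in the upper 9 genes and in none of the lower 9.

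Since miR-146a was the transgene, the 3′ UTRs of the kinesins were searched for matches of 7 or 8 bases to its seed, which is given in capitals in the RefSeq sequence of the mature miRNA.
mmu-miR-146a-5p: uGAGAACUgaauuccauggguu

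None of the 10 mitotic kinesins held a match, and 3 of 8 searched transport kinesins did (Kif1c, Kif3c and Kif21b), as did Kif24. Over the measured kinesins 4 of 21 held one (19.0%), against 18.0% of all measured genes searched. The 3′ UTRs of the mitotic kinesins were short, with a median of 517.5 bases, against 2904.5 bases for the transport kinesins and 964 bases for all measured genes searched. The only 8-base match was in Kif21b, on chr1:136174527-136174556, and is shown in capitals because Kif21b is the transport kinesin with the most fragments.
Kif21b: cccaccaaggtAGTTCTCAggtaaccatgg

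The 4 genes with a match had Tg/WT ratios of 1.03 (Kif3c), 1.09 (Kif21b), 1.15 (Kif1c) and 1.90 (Kif24). None of them was over 1.5-fold lower in the Tg library. Over all measured genes 11.0% were over 1.5-fold lower, and 4 genes are too few to set against that share. Kif3c stood at a log2(Tg/WT) of -0.05 with the running median over transcript length subtracted.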

How the data were processed

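Total RNA of whole thymus was selected with oligo(dT) beads and sequenced on an Illumina HiSeq instrument. The authors mapped the reads, counted uniquely mapped reads and deposited RPKM values for 30533 RefSeq transcripts, while their methods describe a fragment-based unit. Build mm10 is named in the submitters' processing notes. The sources used here give neither the mapper's version nor its strand setting.

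Gene symbols came from RefSeq's table for GRCm38 and from GENCODE M21, for 98.9% of transcripts. Each gene is represented by the transcript of highest mean RPKM. The deposited RPKM gave whole reads for 100% of transcripts (relative tolerance 1e-11), with even counts taken as pairs, a value of 1 read taken as none, and the length nearest to GENCODE where several were possible. The recovery was checked on simulated data. No count test was run, because it would compare libraries and not genotypes. No pseudocount was used. Alternatives of scaling, pseudocount, filter, gene value, transcript length, threshold and class membership (Kif2a and Kif24 counted as mitotic, Kif21a and Kif21b left out of transport) were computed. Members with a mean of at least 5 RPKM, and every mitotic kinesin, were named with both values, and some others are given as well. Of partner lists, the members outside 1.5-fold and the 2 of highest mean were named, and further members after their values were seen. The members, classes, motifs and lists were chosen with earlier results of these data known. Python 3.11.15, numpy 2.4.6, pandas 2.3.3, scipy 1.17.1 and matplotlib 3.10.9 were used.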

Additional observations from a re-analysis of the deposited data

How the results depend on the processing

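No paired analysis was possible because each genotype has 1 library, and for the same reason no replicate could be left out. The mitotic kinesins kept 10 genes over 1.5-fold higher in each alternative of scaling, pseudocount, filter, gene value and length, 7 with a threshold of 2-fold, and 11 of 12 with Kif2a and Kif24 added; their median log2 ran from 1.39 to 1.65. Their median exceeded that of the transport kinesins by 1.35 to 1.49, with 1.48 as reported. Rescaling both libraries to the same sum moved all log2 values by 0.12, which put Kif1b above equal values. With the length adjustment Kif3c (-0.05), Kif5b (-0.06), Kif7 (-0.03) and Kif16b (-0.003) fell below equal values, as did the transport median (-0.003). Kif5b also fell below equal values with median centring (-0.01) and upper quartile scaling (-0.02). With no filter on low values, 2 transport kinesins were over 1.5-fold higher and 1 lower, 4 other kinesins were higher and 2 lower, and over all Kif genes 3 were lower and the median log2 was 0.20; these added genes rest on few fragments. Among other kinesins 0 were over 1.5-fold higher with a mean of at least 5 RPKM and with a threshold of 2-fold, against 1 (Kif24) as reported. Of the partners of transport kinesins, Klc3 was over 1.5-fold lower with median centring, upper quartile scaling or the running median over transcript length subtracted. With no filter the 1 lower gene was Mapk8ip1 instead, on 10 fragments in the Tg library and 17 in the WT library. Of dynein and dynactin genes, 1 was over 1.5-fold higher with a pseudocount of 1 RPKM or with sums or means of transcripts. Kif1b had a log2 of 0.22 with sums or means of its transcripts and -0.03 as reported. At these depths 3 fragments on a transcript of 1 kb correspond to 0.195 RPKM (Tg library) and 0.207 RPKM (WT library). On longer transcripts they correspond to less. The 8 low kinesins with at most 3 fragments in both libraries are not resolved.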

Other observations

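The motif letters seen in the kinesin promoters were also read across all measured genes with a promoter entry, after the kinesin promoters had been examined. The Tg value exceeded the WT value by over 1.5-fold in 7.62% of 8776 such genes, and was lower by that much in 10.1%. Among the 1275 with CHR letters the shares were 13.8% and 12.0%, and among the 580 with both CHR letters and a CCAAT box they were 21.0% and 8.79%. Most genes with these letters were therefore not over 1.5-fold higher, unlike the kinesins that hold them. The mitotic kinesins themselves are part of these counts.

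Several measured kinesins overlap other genes in the RefSeq table (15 of 22, and 4 a protein-coding gene). Kif20a, with a ratio of 2.89, overlaps Cdc23 (22.4 and 19.0 RPKM in the Tg and WT libraries) and Brd8 (40.7 and 30.6 RPKM), whose ratios were 1.18 and 1.33. Kif18a overlaps Mettl15, with a ratio of 0.861, and Kif2a overlaps Dimt1, with a ratio of 0.623. The pseudogene Kif4-ps had 1 fragment in each library.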
